A study of Saccharomyces cerevisiae with 8 samples.

Results

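Aminoacyl-tRNA synthetases attach each amino acid to its transfer RNA, the step at which the genetic code is read chemically. Yeast uses a cytosolic set for translation on cytosolic ribosomes and a largely separate set, encoded in the nucleus and imported, for the mitochondrial ribosome. A few genes (*ALA1*, *CRS1*, *GRS1*, *HTS1* and *VAS1*) serve both compartments. Lysine is charged in the cytosol by the product of *KRS1* (YDR037W), which laboratory yeast cannot live without, and in mitochondria by that of *MSK1* (YNL073W). The 36 genes described here were chosen by name as the annotated synthetases, out of 5797 genes in each of the deposited tables, with 22 in the cytosolic class and 14 in the mitochondrial class. The family was selected on the values of *KRS1* in the same parental comparison, so the values of *KRS1* in parents and in alleles are given as a description, with no test.

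RNA-seq was measured in rich medium (YPD) at 30° in mid-log cultures of diploid yeast, with 1 culture and 1 library of each strain. The Malaysian parents, each MATa/@ HO, were UWOPS03.461.4, then UWOPS05.217.3, and last UWOPS05.227.2, and where 3 Malaysian values are given they stand in that order. The wine/European parents were BC187 (MATa/@ HO) and RM11-1, a cross of RM11-1a and RM11-1b that was MATa/@ ura3 ho::kanMX, given in this order. The study's strain list adds that RM11-1 was heterozygous for lys2 and leu2. The hybrids, labelled MATa/@ HO, were YHL058, a cross of UWOPS03.461.4 with RM11-1b, YHL063, a cross of the same Malaysian strain with BC187, and YHL065, in which BC187 was crossed with UWOPS05.217.3. The strain list gives YHL058 as carrying a kanMX deletion of HO on its RM11-1b side. The value of each gene was split into a Malaysian and a wine/European allele. The values are normalized read counts, equalized to an upper quartile of 6442 in every parent and 2010 in every allele column, so they do not hold the depth of a library. By the study's mapping statistics, YHL065 had by far the fewest uniquely mapped reads. In every one of the columns the highest value was shared by exactly 10 genes and the lowest by at least 10, the pattern left when 10 groups of genes are brought to a common distribution. A value therefore reflects the rank of a gene within its group, and a value near the bottom is not a number of reads. Levels of different genes and the size of very large differences carry this limit. Because each strain was sampled once, strains of a population served as its replicates, and *P*-values measure the spread between strains and libraries together. The tables of parents and of hybrids were normalized separately, and no test was made across them. In these bulk cultures, less transcript in every cell and transcript in fewer cells cannot be told apart.

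Genes were compared with limma on log2(normalized count + 1), Malaysian minus wine/European, with Benjamini-Hochberg adjustment over all genes with a mean of at least 10 (5792 genes in the parents and 5738 in the alleles) and a threshold of 0.05. All 36 synthetase genes passed the filter in both comparisons.

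The sequence windows below are shown because the general amino acid control activator Gcn4p, which is induced when uncharged tRNA accumulates, binds the motif TGACTC, and *KRS1* shares the motif with other cytosolic synthetases. A search of both strands, from 250 bases before to 50 bases after the start codon in the reference assembly R64, found the motif in 479 of 6001 promoters (7.98%), in 9 of 22 cytosolic synthetase promoters (40.9%) and in 0 of 14 mitochondrial ones. Capitals mark the motif, or its reverse complement GAGTCA, in the direction of the gene.
KRS1, chrIV:525294-525323 (+ strand): tgaatgatgaaaTGACTCttaatgaacttc
ILS1, chrII:84346-84375 (- strand): tcgaaacaatgaTGACTCttaagcatgaaa
THS1, chrIX:212283-212312 (+ strand): ttactgtttaaaTGACTCttaccttgtgat
ALA1, chrXV:949139-949168 (- strand): gattaaggaactTGACTCtttctttcaaga
YDR341C, chrIV:1153809-1153838 (- strand): aaagtgtctaatGAGTCAgttatttctttc
CRS1, chrXIV:182777-182806 (+ strand): tttcatcgcgaaGAGTCAaaagacattatc
VAS1, chrVII:672076-672105 (+ strand): atttttttagaaGAGTCAcccatacagcct
YHR020W, chrVIII:143802-143831 (+ strand): taagcgatgcttGAGTCActgaatgtcttg
GLN4, chrXV:649310-649339 (+ strand): ctgtagaagaatTGACTCagctgttttcac
The motif began 134 bases before the start codon of *KRS1*, and in *GLN4* it lay inside the coding sequence. A match describes the reference sequence only, and the promoters of the sampled strains were not analysed here.

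*KRS1* (chromosome IV, 525440 to 527215, + strand, R64) was near the bottom of the expression range in every Malaysian parent and near its top in both wine/European parents. Its normalized count was 45 in UWOPS03.461.4, 16 in UWOPS05.217.3 and 19 in UWOPS05.227.2, against 161232 in BC187 and 153611 in RM11-1. The groups were far apart, with a fitted difference of -12.62 on the log2 scale. In the Malaysian libraries 70, 30 and 20 of the 5797 genes had a value as low as or lower than *KRS1*. In BC187 and RM11-1 only 43 and 53 genes had a higher one. Such low values are ranks, and whether any *KRS1* reads were counted in the Malaysian parents was not tested. Per kilobase of coding sequence, *KRS1* averaged 88638 in the wine/European parents, above every other synthetase there, and 15.0 in the Malaysian parents, below every other synthetase.

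*MSK1* (YNL073W; chromosome XIV, 488386 to 490116), the mitochondrial counterpart, did not share this split. Its normalized count was 3031, 2643 and 2672 in the Malaysian parents, and 2159 and 3047 in BC187 and RM11-1. The Malaysian values lay between the wine/European ones, and the difference of 0.11 (SE 0.17) on the log2 scale did not pass the test (limma, adjusted *P* = 0.691). The encoded proteins are 591 residues (*KRS1*) and 576 residues (*MSK1*) long in the reference, and 35.6% of 526 aligned residues were identical. No stretch of 100 bases in any of the 36 genes occurred a second time in the R64 genome.

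In the hybrids, *KRS1* again differed between alleles, but the value of the wine/European allele was not near the top of its library. Normalized counts of the Malaysian allele were 5 in YHL058, 6 in YHL063 and 8 in YHL065, and those of the wine/European allele were 734, 1140 and 969. These were log2 ratios of -6.94, -7.35 and -6.75. The wine/European allele ranked near the middle of its library, with 48.2%, 60.6% and 56.7% of genes at or below it, whereas the parental gene was among the highest. Allele values hold only reads that could be told apart between the parental genomes. The ranks of allele and parent are therefore unlike measures. *MSK1* had 991, 950 and 828 for the Malaysian allele and 903, 941 and 713 for the wine/European allele, with overlapping groups and a difference of 0.12 (SE 0.15; limma, adjusted *P* = 0.832).

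Set against its own wine/European parent, the wine/European *KRS1* allele stood at 0.478% in YHL058, 0.707% in YHL063 and 0.601% in YHL065. The median gene with a parental value of at least 100 stood at 31.4%, 35.2% and 33.4%, and 50 of 5669, 63 of 5657 and 67 of 5657 such genes were as low as *KRS1* or lower. Only hybrid reads that could be told apart between the parental genomes were counted, and the number of differing bases per gene was not analysed here. The serine and threonine enzymes of the cytosol were also low, for both alleles. Seryl-tRNA synthetase *SES1* (YDR023W) stood between 2.56% and 3.67% of its parents in all 6 allele columns, and threonyl-tRNA synthetase *THS1* (YIL078W) between 2.25% and 3.59%. Among mitochondrial genes, the arginyl enzyme *MSR1* (YHR091C) stood at 12.3% and 14.1% in YHL058 but between 1.22% and 2.92% in the other hybrids, and the seryl enzyme *DIA4* (YHR011W) between 1.84% and 9.50%. *KRS1* was lower than each of the other 35 synthetases in every wine/European allele column. *MSK1* stood between 29.6% and 43.6%. These shares set values of separately normalized tables against each other and were not tested.

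**Figure D1:**
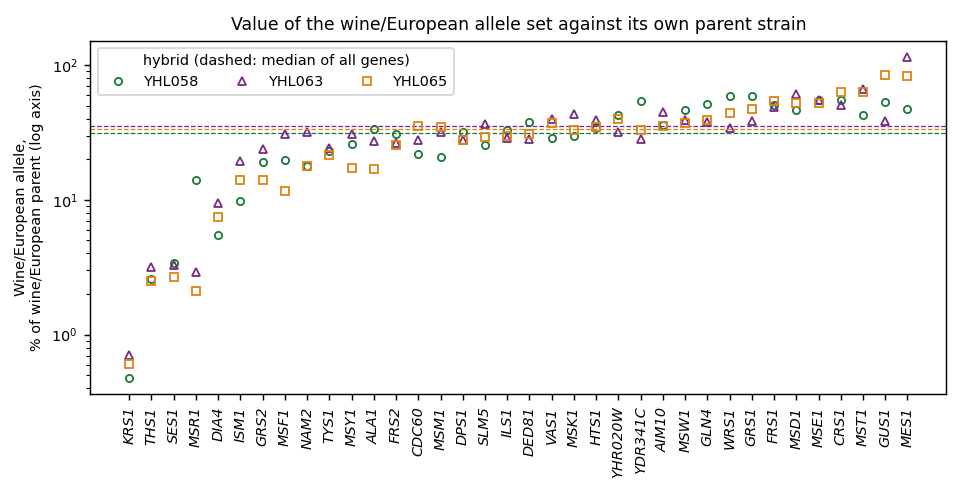
Normalized count of the wine/European allele as a percentage of that in its own wine/European parent (y axis, log scale) for the 36 synthetase genes (x axis, in order of the mean), with 1 point per hybrid and dashed lines at the median of all genes. *KRS1* lies at 0.478%, 0.707% and 0.601%, to the left of *THS1* and *SES1*.

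Genes around *KRS1* were examined in the order of the reference chromosome. *EHD3* (YDR036C), next to *KRS1* and encoding a mitochondrial acyl-CoA hydrolase, had values of 16, 10 and 19 in the Malaysian parents and 2425 and 3023 in the wine/European parents. On the other side, *ENA5* (YDR038C), one of a tandem array of sodium pumps, had 265, 224 and 234 against 2679 and 1907 (limma, adjusted *P* = 0.00159). The Malaysian parents were thus lower at *KRS1* and at both adjoining genes. Beyond *EHD3*, *ARO3* (YDR035W), an enzyme of aromatic amino acid synthesis, was at 5820, 5477 and 5650 against 8548 and 8812 (adjusted *P* = 0.0180). Further out, *CPP3* (YDR034W-B) was at 250, 216 and 225 against 1462 and 2049 (adjusted *P* = 0.00207), and YDR034C-A at 230, 205 and 206 against 2491 and 2150 (adjusted *P* = 0.000509). The outermost gene on that side, YDR034C-C, had overlapping values of 238, 210 and 213 against 204 and 260. *ENA2* (277, 234 and 242 against 210 and 268) and *ENA1* (740, 697 and 815 against 355 and 898) also overlapped. So *KRS1* lay within a row of genes that were lower in the Malaysian parents, at *ARO3* by much less than at the others. Of all genes tested, 22.4% were lower in the Malaysian parents without overlap. The genes next to the row do not mark its ends, because YDR034C-C and *ENA2* had 204 to 277 in every parent. The Malaysian values of YDR034C-A, *CPP3* and *ENA5* lay in that same range. Whether these close values are a shared low level was not tested. *RSM10* (2938, 2518 and 2923 against 2056 and 2592), a mitochondrial ribosomal protein gene, overlapped too, and YDR042C was at 541, 577 and 599 against 591 and 640.

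The neighbours did not all keep the split in the hybrids. For *EHD3*, the Malaysian alleles had 23, 1 and 4 and the wine/European alleles 119, 0 and 0 in YHL058, YHL063 and YHL065. For *ENA5* they had 72, 737 and 663 against 676, 854 and 628. *KRS1* was therefore separated between alleles in hybrids where both alleles of *EHD3* were near the bottom. *CPP3* kept the split, with 70, 80 and 86 against 750, 695 and 766 (log2 -3.22; limma, adjusted *P* = 0.000198). YDR034C-A, with 65, 74 and 82 against 67, 75 and 73, and *ARO3*, with 2630, 3070 and 3859 against 2525, 3049 and 4304, had overlapping alleles. Separate alleles at this locus were thus seen at *CPP3* as well as at *KRS1*. Of the genes between them, *ARO3* had overlapping alleles well above the bottom. *EHD3* was near the bottom for both alleles in YHL063 and YHL065, and overlap there does not show equal alleles. The same limit holds for YDR034C-A, whose allele values lay close to those of YDR034C-C (67, 77 and 86 against 69, 77 and 73). The Malaysian alleles of *CPP3* lay close to these values too, so the size of its difference is uncertain. Whether these close values are a shared low level was not tested in the alleles. YDR034C-A, *CPP3*, *ARO3*, *EHD3* and *KRS1* held no repeated window of 100 bases in R64, whereas 87.8% of such windows in *ENA5*, 98.6% in *ENA2* and 85.2% in *ENA1* were repeated, so the values of the sodium pump genes are uncertain. Reads were counted only on a perfect and unique match to genomes built for each strain. Those genomes were not analysed here, so a low transcript level and a sequence missing or differing in the genome used for mapping cannot be told apart.

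**Figure D2:**
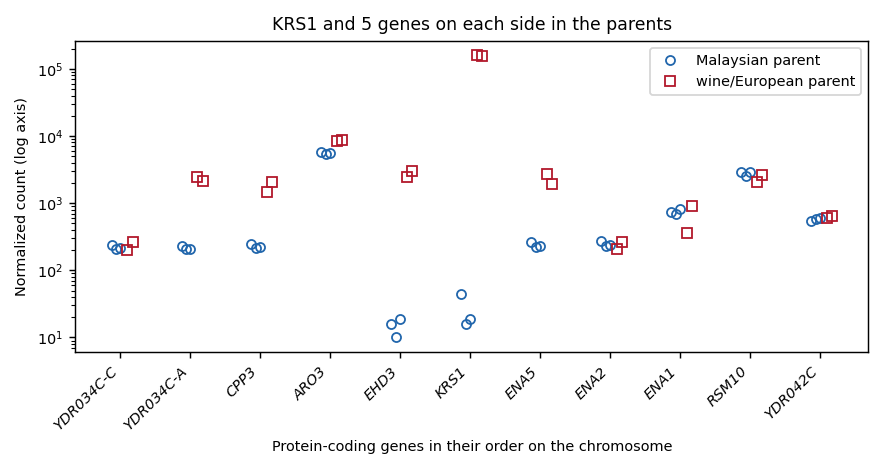
Normalized counts (y axis, log scale) of *KRS1* and the 5 protein-coding genes on each side in their order on the chromosome (x axis), with 1 circle per Malaysian parent and 1 square per wine/European parent. *EHD3*, *KRS1* and *ENA5* are lower in all 3 Malaysian parents, and *KRS1* has the widest gap, from at most 45 to at least 153611.

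By a rule of a value under 100 in all 3 Malaysian parents and above 1000 in both wine/European parents, 5 of the 5797 genes had the pattern of *KRS1*. Besides *KRS1* and *EHD3* they were YAR064W, *COS4* (YFL062W), of a subtelomeric gene family, and *ARR1* (YPR199C), a regulator of arsenic resistance. *COS4* had 32, 33 and 37 against 4199 and 3042, and its alleles were also apart, at 7, 11 and 21 against 1434, 2107 and 1524. YAR064W had 51, 50 and 46 against 1288 and 1696 in the parents, and its alleles overlapped at 505, 541 and 12 against 596, 641 and 8. *ARR1* had 90, 95 and 53 against 1701 and 3004, and 54, 80 and 91 against 597, 83 and 85 in the alleles. No other gene among them was a synthetase, and *COS4* and *KRS1* were the ones whose alleles did not overlap.

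The other 35 synthetases were expressed in both populations at levels that differed mainly by compartment. Per kilobase, the 21 cytosolic genes without *KRS1* had a median of 25112 in the Malaysian and 21458 in the wine/European parents, and the 14 mitochondrial genes had 886 and 999. The highest cytosolic gene apart from *KRS1* was glutamyl-tRNA synthetase *GUS1* (YGL245W), at 72306 and 67551 in the Malaysian and wine/European parents. In the wine/European parents *KRS1*, at 90784 in BC187 and 86493 in RM11-1, did not overlap with *GUS1*, at 55054 and 80048. *GUS1* in turn overlapped with the next gene, glycyl-tRNA synthetase *GRS1* (YBR121C), at 58529 and 60375. The lowest cytosolic gene was *GRS2* (YPR081C), a paralog of *GRS1* with 61.0% of aligned residues identical, at 409 and 232. The mitochondrial genes spanned from *ISM1* (YPL040C, isoleucine), at 305 and 319, to *MSD1* (YPL104W, aspartate) in the Malaysian parents, at 2001, and *MSK1* in the wine/European parents, at 1504. *MSK1* was thus at the top of its class in the same strains in which *KRS1* was at the top of its own, and its values overlapped with those of *MST1* (YKL194C), the next gene.

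**Figure D3:**
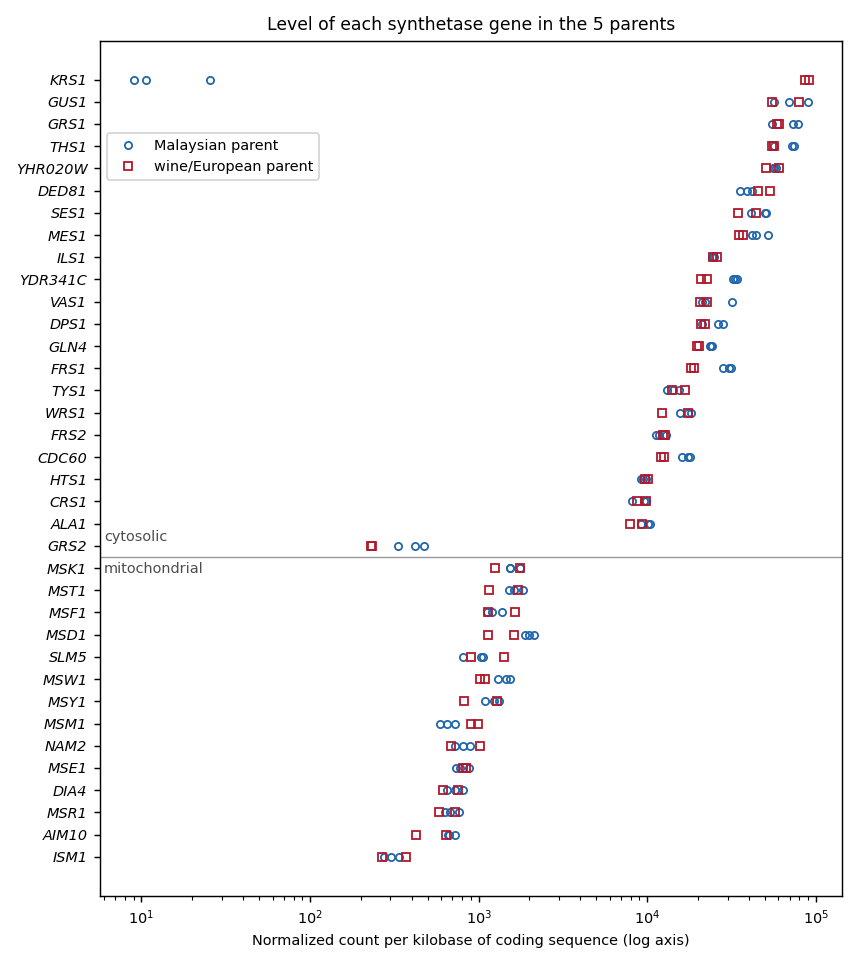
Normalized count per kilobase of coding sequence (x axis, log scale) of the 36 synthetase genes (y axis), with 1 circle per Malaysian parent and 1 square per wine/European parent, and the cytosolic genes above the line. Apart from *KRS1*, whose Malaysian values lie to the far left, and *GRS2*, cytosolic genes lie above mitochondrial ones.

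Between the parents, 2 of the 35 other synthetases passed the test and both were higher in the Malaysian strains, where 5.06% of all genes tested were called higher. None was called lower, against 5.82% of all genes. In either direction, 7 of the 35 had an unadjusted *P* under 0.05 (limma), against 1765 of 5792 genes tested. The first gene called was *FRS1* (YLR060W), one of the subunits of cytosolic phenylalanyl-tRNA synthetase. It had 54724, 50207 and 56409 in the Malaysian parents, and 32579 and 34074 in BC187 and RM11-1. The groups were apart by 1.61-fold (log2 0.69, SE 0.11; limma, adjusted *P* = 0.0236). The partner subunit, *FRS2* (YFL022C), had 17110, 19522 and 17705 against 18874 and 19225, an overlapping pair of groups (log2 -0.08, SE 0.11; adjusted *P* = 0.676). The difference between the subunits was not tested. The second was YDR341C, the cytosolic arginyl-tRNA synthetase, with 59093, 60723 and 61859 against 37993 and 41389. All Malaysian values were above the wine/European ones, by 1.53-fold (log2 0.61, SE 0.11; limma, adjusted *P* = 0.0304). Its mitochondrial counterpart *MSR1*, with 59.2% of aligned residues identical, had overlapping values of 1484, 1315 and 1227 against 1132 and 1393.

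The sizes of both differences held when any strain was left out, at 0.65 to 0.74 for *FRS1* and 0.55 to 0.67 for YDR341C on the log2 scale, but the calls were lost in some of these smaller fits. The adjusted *P* of *FRS1* was 0.126 when UWOPS03.461.4 was left out, 0.133 without UWOPS05.227.2 and 0.0518 without BC187. That of YDR341C was 0.135, 0.0560 and 0.156 without the Malaysian strains in their order, and 0.0624 without BC187. The fitted difference of *MSD1* was 0.82 without RM11-1 and 0.30 without BC187, fits that each left a single wine/European strain.

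Several further synthetases had groups that did not overlap without passing the test. In total 9 of the 35 were higher in all Malaysian parents and 2 were lower, against 26.5% and 22.4% of all genes tested. *GRS2* had the largest fitted difference of these, with 885, 617 and 774 against 433 and 427 (log2 0.80, SE 0.19; limma, adjusted *P* = 0.0529). *MSD1* had 4241, 3715 and 3910 against 2233 and 3216 (log2 0.56, SE 0.18; adjusted *P* = 0.106). *MSM1* (YGR171C), the mitochondrial methionyl-tRNA synthetase, was on the other side, with 1124, 1248 and 1014 against 1555 and 1716 (log2 -0.54, SE 0.13; adjusted *P* = 0.0621). The other non-overlapping genes had fitted differences under 0.5 in size. Those above were *GLN4* (YOR168W, glutamine), *CDC60* (YPL160W, leucine), *MES1* (YGR264C, methionine), *MSW1* (YDR268W, mitochondrial tryptophan) and *AIM10* (YER087W, mitochondrial proline). The one below was *DED81* (YHR019C, asparagine). In all, 30 of the 35 differed by less than 0.5 on the log2 scale, as did 4369 of the 5792 genes tested.

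The remaining genes had parental values that overlapped. In the cytosolic class they were *ALA1* (YOR335C), *DPS1* (YLL018C), *CRS1* (YNL247W), *GUS1*, *GRS1*, *HTS1* (YPR033C), *ILS1* (YBL076C), *FRS2*, YHR020W, *SES1*, *THS1*, *WRS1* (YOL097C), *TYS1* (YGR185C) and *VAS1* (YGR094W), for alanine, aspartate, cysteine, glutamate, glycine, histidine, isoleucine, phenylalanine, proline, serine, threonine, tryptophan, tyrosine and valine. In the mitochondrial class they were *MSE1* (YOL033W), *MSF1* (YPR047W), *MSK1*, *MSR1*, *MST1*, *MSY1* (YPL097W), *ISM1*, *NAM2* (YLR382C), *DIA4* and *SLM5* (YCR024C).

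As classes, the fitted parental differences of the 21 cytosolic genes without *KRS1* had a median of 0.20 on the log2 scale, with 15 above and 6 below 0, and those of the 14 mitochondrial genes a median of 0.09, with 8 above and 6 below. The median of all genes tested was 0.03. The cytosolic median was still 0.20 with *KRS1* included. It was 0.11 without RM11-1 and 0.27 without BC187, and the mitochondrial median was 0.24 without RM11-1, -0.08 without BC187 and 0.01 without UWOPS03.461.4. Among cytosolic genes, the 8 with TGACTC besides *KRS1* had a median of 0.20, and the 13 without it 0.22.

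The mitochondrial genes differed more within the wine/European population. RM11-1 was above BC187 at 13 of 14 mitochondrial synthetases, with a median log2 ratio of 0.51, and *MSW1* was the exception. Of the 21 cytosolic genes 9 were higher in RM11-1, with a median of -0.03, and of all genes 58.8% were, with a median of 0.08. The median mitochondrial difference of the Malaysian strains therefore lay between 0.22 and 0.40 against BC187 and between -0.19 and 0.05 against RM11-1. With 1 library of each, the strain and the library cannot be told apart.

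**Figure D4:**
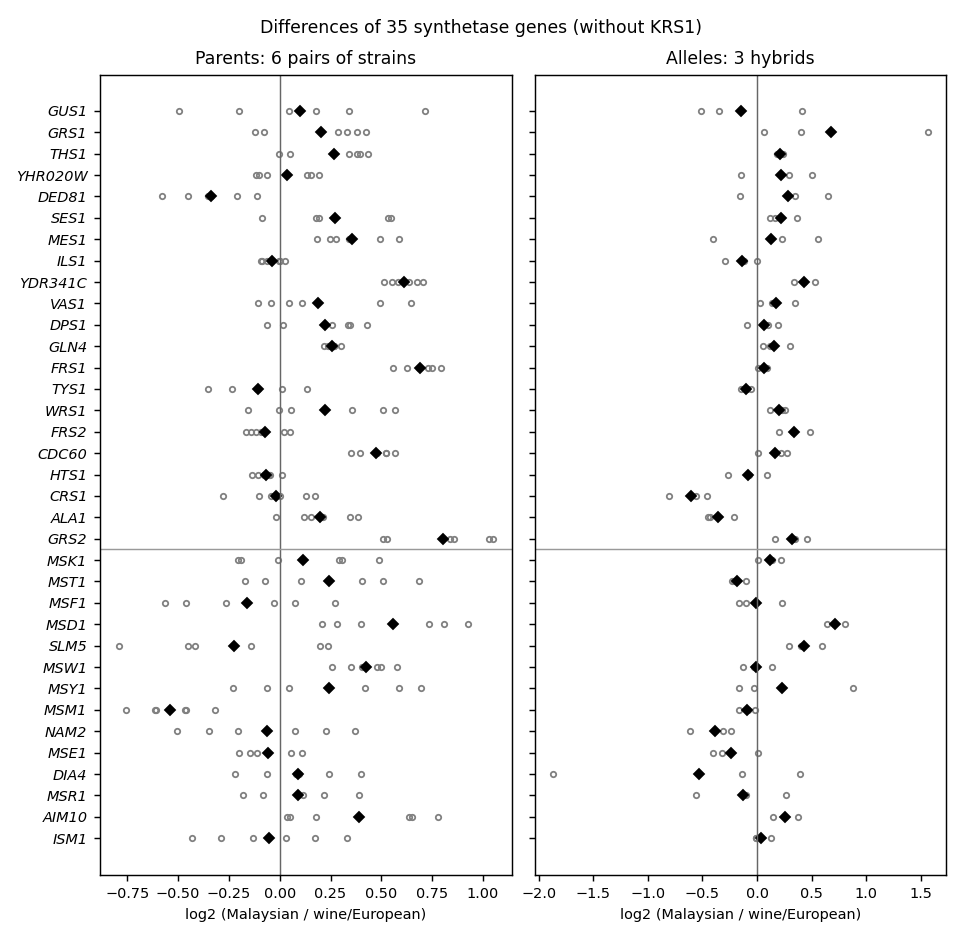
Log2 ratio of Malaysian to wine/European values (x axes) for 35 synthetase genes (y axis, cytosolic above the line), with open circles for each of the 6 pairs of parent strains (left) or 3 hybrids (right) and diamonds for the fitted difference. *FRS1*, YDR341C and *MSD1* each have all 6 parental pairs and all 3 hybrids above 0. All 6 pairs are above 0 at 9 of the 35 genes and at 1540 of all 5797 genes.

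Between alleles within hybrids, 1 of the 35 genes passed the test, *MSD1*, with the Malaysian allele higher. Of all genes tested, 2.07% were called higher and 2.63% lower. An unadjusted *P* under 0.05 (limma) was found at 4 of the 35, against 1008 of 5738 genes tested. The Malaysian allele of *MSD1* had 2440, 2116 and 2039 in YHL058, YHL063 and YHL065, and the wine/European allele 1492, 1354 and 1167. All Malaysian values were above all wine/European ones, by 1.65-fold (log2 0.72, SE 0.14; limma, adjusted *P* = 0.0409). Without YHL058, YHL063 or YHL065 the difference was 0.72, 0.76 and 0.68, and the adjusted *P* was 0.0880, 0.441 and 0.151. The groups did not overlap at 3 genes with the Malaysian allele higher (*MSD1*, *FRS2* and *SLM5*) and 2 with it lower (*CRS1* and *MST1*), against 11.9% and 11.3% of all genes.

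Because the alleles of a hybrid came from the same culture, the comparison was also made with the hybrid as a block, and 6 of the 35 then passed. The Malaysian allele was higher at 4 and lower at 2, against 9.01% and 8.87% of all genes tested. *MSD1* was again among them (adjusted *P* = 0.00627). *CRS1*, the cysteinyl enzyme, had 6358, 7748 and 10528 for the Malaysian and 11152, 11432 and 14423 for the wine/European allele, which was higher in 3 of 3 hybrids (log2 -0.61, blocked SE 0.09; limma, adjusted *P* = 0.0193, and 0.213 without the block). *ALA1*, the alanyl enzyme, had 5669, 5361 and 3942 against 7637, 7305 and 4551 (log2 -0.36, blocked SE 0.07; adjusted *P* = 0.0375, and 0.568 without the block). The fitted parental differences of *CRS1* and *ALA1* were -0.02 and 0.20 on the log2 scale, neither past the threshold.

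The other genes that passed with the block had the Malaysian allele higher in each of 3 hybrids. YDR341C had 32325, 14546 and 15882 against 22299, 10789 and 12562 (log2 0.43, blocked SE 0.07; adjusted *P* = 0.0265, and 0.710 without the block), beside its parental difference of 0.61. *FRS2* had 6791, 6209 and 6693 against 5898, 4955 and 4790 (log2 0.34; adjusted *P* = 0.0462, and 0.226 without the block). *SLM5*, the mitochondrial asparaginyl enzyme, had 704, 590 and 589 against 533, 482 and 389 (log2 0.43; adjusted *P* = 0.0412, and 0.238 without the block). Of the phenylalanyl subunits, *FRS1*, called between parents, had alleles at 18292, 16997 and 17678 against 17167, 16021 and 17583 (log2 0.06; adjusted *P* = 0.935), whereas the parental values of *FRS2* overlapped.

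The direction of the allelic ratio was mixed at a smaller share of the synthetases than of all genes. Of the 35 genes, 15 had the Malaysian allele higher in every hybrid, 7 had it lower in every hybrid and 13 (37.1%) had mixed signs, against 29.2%, 27.8% and 43.0% of all 5797 genes. The counts were 11, 4 and 6 of the 21 cytosolic genes without *KRS1*, and 4, 3 and 7 of the 14 mitochondrial genes. These shares were not tested. *GRS1* in YHL065 had 164169 for the Malaysian and 55502 for the wine/European allele, whereas it had 75245 against 71805 in YHL058 and 59495 against 45087 in YHL063. *DIA4* in YHL065 had 16 against 61, whereas it had 74 against 56 and 71 against 78 in the other hybrids. The median allelic ratio was 0.17 for the cytosolic genes without *KRS1* (0.088 without YHL065) and -0.01 for the mitochondrial genes, and 0.005 for all genes.

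Of the 13 partner genes of tRNA charging, 0 passed the test in the parents and 0 in the alleles (limma). Of the 13, 4 and 0 had an unadjusted limma *P* under 0.05, against 1765 of 5792 and 1008 of 5738 genes tested. With the hybrid as a block, 1 partner gene passed. Of all genes tested, 10.9%, 4.71% and 17.9% were called in these comparisons in either direction. That partner gene was *CEX1*, which takes part in tRNA export from the nucleus, with 929, 719 and 556 for the Malaysian and 1184, 1038 and 802 for the wine/European allele (log2 -0.47, blocked SE 0.07; adjusted *P* = 0.0195, and 0.382 without the block). The parental values of *CEX1* leaned the other way, with 2414, 1830 and 2110 against 1662 and 1470 (log2 0.43; adjusted *P* = 0.130). *GCN4*, the activator that responds to uncharged tRNA through the kinase *GCN2*, had 37297, 34212 and 35983 against 46885 and 45986. Its groups did not overlap (log2 -0.37, SE 0.11; limma, adjusted *P* = 0.0838). *GCN2* had 2889, 2677 and 3078 against 2805 and 4246, and its partners *GCN1* and *GCN20* had fitted differences of 0.17 and -0.04. No transcript of this pathway was therefore called between the parents, and the activity of the pathway was not measured.

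The other partners did not pass either. *DTD1*, a deacylase of mischarged D-aminoacyl-tRNA, had 3534, 3495 and 3190 against 4662 and 4259 (log2 -0.39; limma, adjusted *P* = 0.0759). *HER2*, a subunit of the mitochondrial amidotransferase that makes glutaminyl-tRNA, had 1517, 1349 and 1333 against 665 and 990 (log2 0.78; adjusted *P* = 0.0628), whereas the subunits *PET112* and *GTF1* were at 0.19 and -0.16. *FMT1*, which formylates mitochondrial initiator tRNA, had 516, 498 and 352 against 65 and 402, and BC187 stood apart. *ARC1*, the cofactor that binds the *MES1* and *GUS1* enzymes, the tRNA exporter *LOS1* and the mitochondrial elongation factor *TUF1* had fitted differences of -0.10, 0.07 and 0.04.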

How the data were processed

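Per the study's methods and the labels, poly-A RNA was sequenced, and reads were mapped with Bowtie (version 0.12.7, from the submitters' processing notes) to strain genomes amended with SNPs, keeping perfect and unique matches. Hybrid reads were mapped to the joined parental genomes. The authors normalized gene sums with EDASeq for GC content and upper quartile, and the deposited values are a score, a normalized count rounded to whole numbers. They are not raw counts, so no count model was used. The values came in sets of 10 genes at the top and bottom of each column, as a quantile alignment within 10 groups of genes gives, whereas the methods name a loess correction for GC content. The 50 lowest genes of a column had a median place of 207 to 1816 in the alphabetical gene list, against 2899 for all genes, so the order among the lowest values partly follows the gene list. The authors' group means, fold changes and *P*-values were also deposited and were not used. The build behind the gene models is not given in the sources used here. Names, lengths, coordinates and sequences were taken from RefSeq's R64, in which 5792 of 5797 identifiers, and all 36 synthetases, were found.

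Limma 3.58.1 in R 4.3.3 (lmFit, eBayes with a trend) was run on log2(value + 1) over all genes with a mean of at least 10, without a block, as in the study. The alleles are paired by origin, and the deviations of the alleles of a hybrid from their group means correlated across 5738 genes (r = 0.669, 0.541 and 0.476), so the blocked fit is given where it changes a call. Python 3.11.15 with Biopython 1.88 (pairwise protein alignments), pandas 2.3.3, numpy 2.4.6 and matplotlib 3.10.9 gave the tables and figures. Tested on simulated data of the parental design with 5792 genes, the fit recovered 76 of 100 changes of 1.5 on the log2 scale and 96 of 100 changes of 3, with 9 false calls. In the allelic design (5738 genes) it recovered 71 and 91, with 10 false calls, and with the block 58 and 85, with 8. The simulated columns varied independently, without the shared deviations of a hybrid's alleles. The allelic recoveries, with or without the block, therefore do not apply to the paired data. Changes as small as those called among the other synthetases were not simulated.

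The members and lists were chosen with earlier results of these data known. Named genes were *KRS1* and *MSK1*, synthetases past the threshold with or without the block, those whose groups did not overlap with a difference of at least 0.5, the highest and lowest per kilobase in each class, 5 genes on each side of *KRS1*, genes with its pattern, and 13 partner genes. *SES1*, *THS1*, *MSR1*, *DIA4* and *GRS1*, and the comparison of RM11-1 with BC187, were chosen after their values were seen. Alternatives tried were other pseudocounts (10 and 0.5), other filters (none, or a mean of 100), rescaling by median ratio, quantile normalization, no trend, leaving out each parent or hybrid, the block, and other thresholds of the *KRS1* pattern.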

Additional observations from a re-analysis of the deposited data

How the results depend on the processing

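No result turned direction past the threshold under the alternatives run. The number of the 35 synthetases called between parents, 2 as reported, was 4 with quantile normalization (*CDC60* and *GRS2* joined). It was 3 with rescaling by median ratio (*GRS2* joined). It was 0 without UWOPS03.461.4 or UWOPS05.227.2 and 2 without UWOPS05.217.3. Counts without BC187 or without RM11-1 are not given, because those fits left 1 wine/European strain. The shares of all genes called under these settings are not given here. Where leaving out left 1 wine/European strain, that strain was assumed to vary like the others. The number called between alleles, 1 as reported, was 0 without a trend, 0 when any hybrid was left out and 6 with the replicate block (alleles paired by hybrid). The median allelic ratio of the cytosolic class, 0.17 on the log2 scale, was 0.088 without YHL065 (range 0.088 to 0.21 over the hybrids left out), and that of the mitochondrial class, -0.01, was 0.058 without YHL058 (range -0.02 to 0.058). The *KRS1* pattern was met by 3 genes at the limits of 50 and 500 in place of 5. *FRS1* passed in 9 of 12 alternatives (adjusted *P* 0.0129 to 0.133), YDR341C in 8 of 12 (0.0158 to 0.156) and *MSD1* between alleles in 7 of 11 (0.00627 to 0.441). The *KRS1* difference lay between -13.31 and -12.15 in parents and between -7.69 and -5.86 in alleles. The lowest of these values are ranks near the bottom and not numbers of reads. With 5 parents and 3 hybrids, each sampled once, small differences may be missed, and an adjusted *P* above 0.05 does not show equal levels.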
